A study of Mus musculus with 10 samples.

Results

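The 8 genes described here belong to the serpin family of protease inhibitors and were chosen by name, with earlier results of these data known: SERPINA1, SERPINA3, SERPINA5, SERPINB1, SERPINB5, SERPINB6, SERPINE2 and SERPINH1. They were followed through probe sets annotated with exactly 1 gene symbol. By that rule 7 of the 8 members were found among 19556 genes of the array, and SERPINB6 was not analysed here. Of the 7, 6 passed a filter on low values, and SERPINE2 did not. Because the members were picked with their values in view, those values are given as a description, and the count of members past the test's threshold is read only beside the share of all genes past it.

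Most serpins act as bait for a protease: the protease cuts an exposed reactive centre loop, the serpin changes shape, and both are trapped in a covalent complex that is then cleared. Clade A members are largely secreted proteins of the plasma, while clade B members mostly stay inside the cell. Some members no longer inhibit proteases at all: SERPINB5 (maspin) is studied as a suppressor of breast tumor growth and SERPINH1 (HSP47) is a collagen chaperone of the endoplasmic reticulum.

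The study asked how tumor cells in lymph node metastases and in primary tumors differ in their dependence on estrogen. Human estrogen receptor positive breast cancer cells, whose line the labels do not name, grew in female nu/nu mice aged 20 weeks. Tumor cells were cut out of frozen sections by laser capture, their RNA was amplified by PCR, and each sample was hybridized to 1 array, giving 10 arrays from 6 mice. All mice received an estrogen pellet. In the estrogen groups (E) it stayed in place, and in the withdrawn groups (EWD) it was taken out for 1 week. Axillary lymph nodes came from mice 6, 11 and 14 with estrogen (LN_E, n = 3) and from mice 9, 10 and 19 after withdrawal (LN_EWD, n = 3). Primary mammary tumors came from mice 11 and 14 with estrogen (PT_E, n = 2) and from mice 10 and 19 after withdrawal (PT_EWD, n = 2). Mice of the nu/nu strain lack a working thymus and T cells but keep other leukocytes. The labels name the mouse as the organism while the probe sets are human, so host RNA could be read only by cross-hybridization, which was not tested.

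The arrays differed in ways that touch several members. The PT_E arrays had a narrower range than the rest, with 99th percentiles of 9.44 and 10.04 log2 units against 11.39 to 11.67, while medians were 2.70 to 2.83 on all 10. Hybridization controls were bright (means 12.04 to 12.47) on 4 arrays, namely LN_E of mouse 11, LN_EWD of mouse 19 and both PT_EWD arrays, and dimmer (9.47 to 10.59) on the other 6. The 3' signal of the GAPDH control exceeded its 5' signal on all arrays. This 3' excess, a gauge of RNA quality, was lowest in PT_E (3.15 and 3.73) and highest in PT_EWD (4.62 and 5.87). Lymph node arrays lay between (3.84 to 4.39). Its part in the member differences was not tested. Luminal epithelial markers differed in level: KRT18, a luminal keratin, read 11.18 to 13.47 over the 10 arrays. Others of the list were dimmer: KRT8 read 5.73 to 9.61, FOXA1 4.08 to 7.87 and KRT19 3.90 to 4.97. ESR1, the estrogen receptor, read 8.04 to 12.65 on 9 arrays and 5.44 on LN_E of mouse 11.

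SERPINA1 encodes alpha-1-antitrypsin, the main plasma inhibitor of neutrophil elastase. Its log2 signal in lymph nodes was 9.01, 8.78 and 7.96 in estrogen mice 6, 11 and 14. After withdrawal it was 8.21, 10.72 and 8.29 in mice 9, 10 and 19. Every lymph node array lay far above the primary tumors, which read 5.23 and 4.27 with estrogen (mice 11 and 14) and 4.52 and 4.82 after withdrawal (mice 10 and 19). Group means were 8.58 ± 0.55 (SD, n = 3) in LN_E, 9.07 ± 1.43 (SD, n = 3) in LN_EWD, 4.75 ± 0.68 (SD, n = 2) in PT_E and 4.67 ± 0.21 (SD, n = 2) in PT_EWD. The 2 sites did not overlap under either pellet state, whereas the pellet states overlapped in both sites. In captured tissue, fewer cells of a type and less RNA per cell cannot be told apart.

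In the limma fit SERPINA1 was higher in lymph node by 3.85 ± 0.74 log2 units (SE) with estrogen and by 4.38 ± 0.74 after withdrawal. The fitted values differ slightly from differences of means because the fit treats the mouse as a random block. Averaged over both pellet states the difference was 4.12 ± 0.52, the highest of the 17170 genes tested. By size SERPINA1 ranked 3 with estrogen and 1 after withdrawal. The difference passed the threshold (Benjamini-Hochberg adjusted p below 0.05 over all genes) with estrogen and on average. After withdrawal it did not pass, and neither did any other gene. The estrogen differences were −0.49 ± 0.65 in lymph node and 0.05 ± 0.80 in primary tumors, each smaller than its SE. The lymph node value turned to 0.33 without LN_EWD mouse 10, the highest array.

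The estrogen-state call for SERPINA1 rested on few arrays: it was lost without LN_E mouse 6 (3.62), PT_E mouse 11 (4.23) or PT_E mouse 14 (3.38), after quantile normalization between arrays (3.40), with array weights (3.46), with mouse as a fixed block over the 4 mice with both sites (3.62) and with only the compared groups and no block (3.84), while the difference stayed positive in all 18 alternatives. The averaged call was lost with the fixed block (4.23). Within the dimmer hybridization level it was 3.74 with estrogen (2 arrays against 2), and within the brighter level 3.62 after withdrawal (1 array against 2). A second SERPINA1 probe set read only 1.90 to 2.46 on all 10 arrays and did not separate the sites. Averaging both probe sets lowered the estrogen difference to 1.93.

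**Figure D1:**
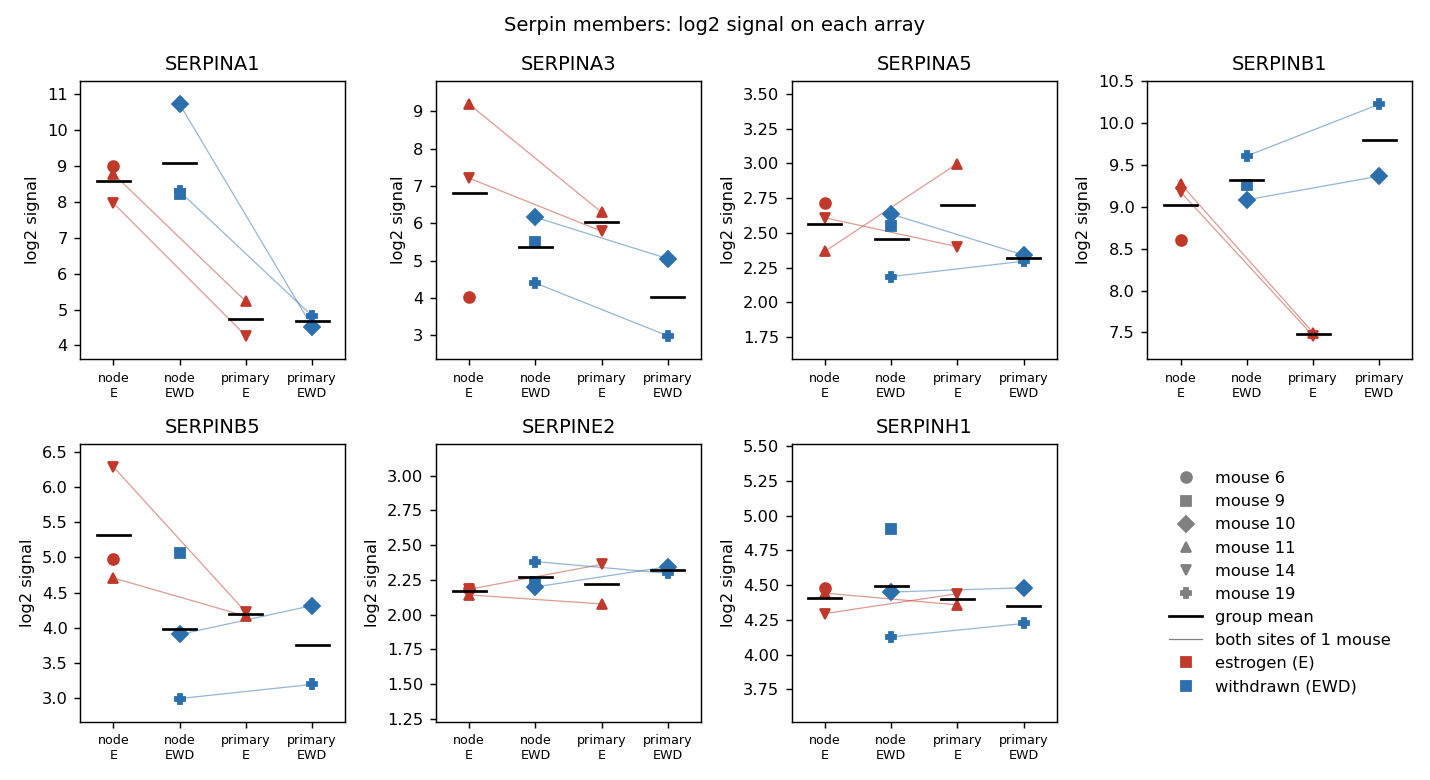
Log2 signal (vertical axis, a separate scale in each panel) of the 7 measured members on each of the 10 arrays, by site and pellet state; symbols mark the mouse, red is estrogen, blue is withdrawn, thin lines join both sites of 1 mouse and black bars are group means. SERPINA1 lies at 7.96 to 10.72 in lymph nodes and 4.27 to 5.23 in primary tumors, and SERPINB1 is lowest on both PT_E arrays (7.50 and 7.46).

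SERPINA3 encodes alpha-1-antichymotrypsin, an acute-phase inhibitor of cathepsin G and mast cell chymase. It was the most variable member within a group. In LN_E it read 4.03, 9.19 and 7.21 (mice 6, 11 and 14), and in LN_EWD 5.50, 6.16 and 4.40 (mice 9, 10 and 19). In PT_E it read 6.29 and 5.79 (mice 11 and 14), and in PT_EWD 5.05 and 2.98 (mice 10 and 19). The LN_E array of mouse 6 was below every LN_EWD array and that of mouse 11 was above all other arrays, so the lymph node groups overlapped. Both PT_E arrays were above both PT_EWD arrays.

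The estrogen difference of SERPINA3 was 1.46 ± 1.18 (SE) in lymph node and 2.08 ± 1.44 in primary tumors, and neither passed the threshold. The lymph node value was 0.27 without LN_E mouse 11 and 2.85 without LN_E mouse 6. It was −0.21 among arrays of the dimmer hybridization level (2 against 2) and 4.79 in the brighter one (1 against 1). The LN_E array of mouse 11 was also the highest of the 10 for 6 of the 13 measured myeloid markers, among them CD14 (4.33 against 2.59 to 3.02) and ITGAM (5.06 against 2.05 to 3.28). PTPRC (2.17), LYZ (2.18) and CSF1R (2.16) were low there and TYROBP (2.07) was at the lowest of its values, and the part of these markers in the SERPINA3 level was not tested. In primary tumors the value moved to 1.08 without PT_EWD mouse 19 and to 3.40 without PT_EWD mouse 10.

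SERPINA5, the protein C inhibitor, read close to the filter (2.31) on all arrays. Its values ran from 2.37 to 2.71 in LN_E, 2.19 to 2.64 in LN_EWD, 2.40 to 3.00 in PT_E and 2.30 to 2.34 in PT_EWD. The fitted differences ran from −0.13 to 0.38, and none passed the threshold.

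Among the intracellular clade B members, SERPINB1, the leukocyte elastase inhibitor that shields cells from granule proteases, was bright on all arrays. It read 8.60, 9.28 and 9.18 in LN_E (mice 6, 11 and 14) and 9.26, 9.08 and 9.61 in LN_EWD (mice 9, 10 and 19). In primary tumors it read 7.50 and 7.46 with estrogen (mice 11 and 14) and 9.37 and 10.23 after withdrawal (mice 10 and 19). The PT_E arrays thus lay below the other 8, and the other 3 groups lay near one another. Means were 9.02 ± 0.36 (SD, n = 3) in LN_E, 9.32 ± 0.27 (SD, n = 3) in LN_EWD, 7.48 ± 0.03 (SD, n = 2) in PT_E and 9.80 ± 0.61 (SD, n = 2) in PT_EWD.

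SERPINB1 differed between pellet states in primary tumors by −2.31 ± 0.36 (SE), lower with estrogen, and between sites with estrogen by 1.53 ± 0.33, higher in lymph node. Both passed the threshold, and both rest on the same PT_E arrays. It differed by −0.30 ± 0.29 between pellet states in lymph node and by −0.48 ± 0.33 between sites after withdrawal, where it did not pass. The PT_E arrays are the ones with the narrow range, and after quantile normalization the values were −1.12 in primary tumors and 0.44 between sites with estrogen, neither past the threshold. The primary tumor call was also lost without PT_E mouse 11 (−2.36) or PT_EWD mouse 19 (−1.82). The site call was also lost without LN_E mouse 6 (1.75), LN_EWD mouse 10 (1.52), PT_E mouse 11 (1.58) or PT_E mouse 14 (1.56), with the mean of all probe sets (0.85), with the fixed mouse block (1.75) and with only the compared groups and no block (1.54). Both PT_E arrays were at the dimmer hybridization level and both PT_EWD arrays at the brighter one, so pellet state and that level cannot be told apart in primary tumors. The same holds for pellet state and the 3' excess of the GAPDH control.

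The other SERPINB1 probe sets varied in size but mostly not in sign. As differences of group means, the primary tumor pellet difference was −2.32 for the probe set used, −2.36 for the next and −1.07 for the third. The last, dim on all arrays (3.10 to 4.44), gave 0.20. Between sites with estrogen the same probe sets gave 1.54, 1.36, 0.59 and −0.04.

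SERPINB5 read 4.98, 4.71 and 6.29 in LN_E (mice 6, 11 and 14) and 5.07, 3.90 and 2.99 in LN_EWD (mice 9, 10 and 19). In primary tumors it read 4.16 and 4.22 with estrogen (mice 11 and 14) and 4.31 and 3.19 after withdrawal (mice 10 and 19). Mouse 14 with estrogen was the highest lymph node and mouse 19 after withdrawal the lowest, and the remaining 4 lay between 3.90 and 5.07. The lymph node pellet difference was 1.34 ± 0.60 (SE) and the site difference with estrogen 1.13 ± 0.68. Neither passed the threshold, although LN_E and PT_E did not overlap. The pellet difference was 0.86 without LN_E mouse 14 and 0.82 without LN_EWD mouse 19, and the site difference was 0.65 without LN_E mouse 14. The second probe set read 1.87 to 2.27 throughout.

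SERPINE2, protease nexin-1, a cell-surface inhibitor of thrombin and urokinase, was dim throughout. The probe set used read 2.08 to 2.38 over the 10 arrays, below the filter on average, and was not tested. A second SERPINE2 probe set read 1.92 to 2.72. SERPINH1, which binds folding procollagen, was steady at 4.30 to 4.48 in LN_E, 4.13 to 4.91 in LN_EWD, 4.36 to 4.44 in PT_E and 4.22 to 4.48 in PT_EWD. Its fitted differences ran from −0.09 to 0.15 with SEs of 0.23 to 0.28, and none passed the threshold. A second, dim SERPINH1 probe set read 2.08 to 2.66. Its differences of group means ran from −0.16 (pellet states in primary tumors) to 0.36 (sites with estrogen).

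**Figure D2:**
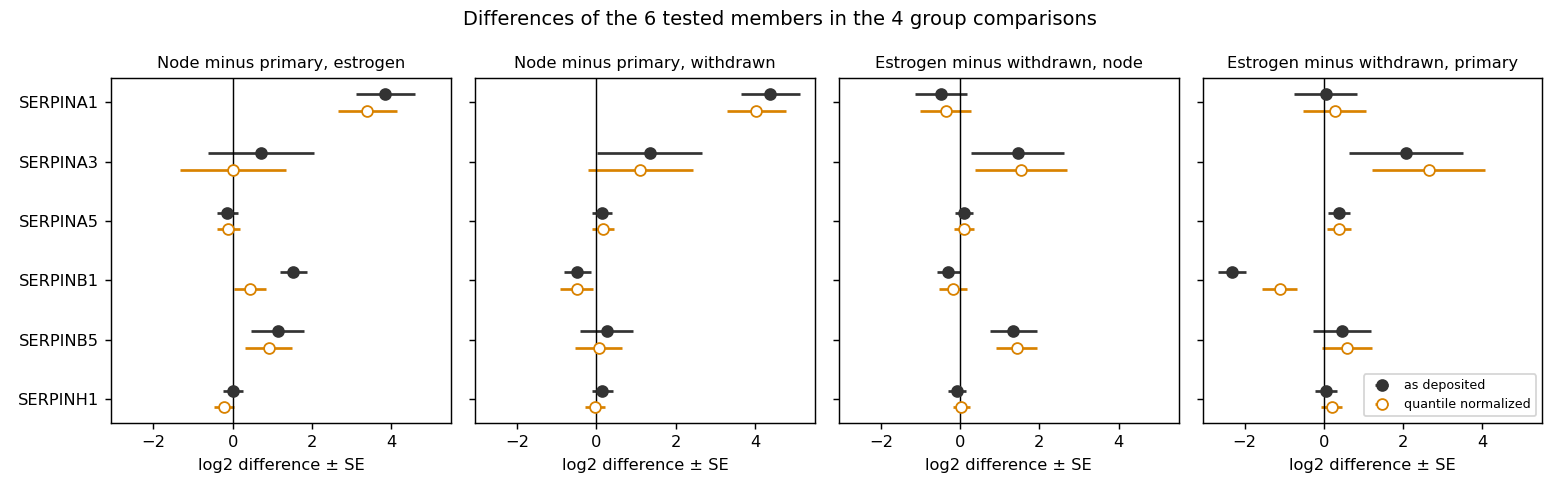
Fitted log2 difference (horizontal axis) with its SE for each tested member, in the 4 group comparisons, with values as deposited and after quantile normalization. SERPINA1 stands at 3.85 and 4.38 between sites, SERPINB1 at −2.31 between pellet states in primary tumors, and quantile normalization takes that last value to −1.12.

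In 4 mice both sites were taken, so each member's lymph node value could be set against the primary tumor of the same animal. For SERPINA1 the lymph node was higher by 6.20, 3.55, 3.70 and 3.47 log2 units for mice 10, 11, 14 and 19. All 4 mice went the same way, and all 4 did after quantile normalization (5.68, 3.29, 3.17 and 3.46). For SERPINA3 the differences were 1.11, 2.90, 1.42 and 1.42 in the same order, again all positive, and 0.80, 2.38, 0.53 and 1.42 after quantile normalization. These were 2 of the 6 tested members, where 20.6% of all genes had the same sign in all 4 mice and 16.6% were higher in lymph node in all 4.

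SERPINB1 split by pellet state within mice. The lymph node was higher in the estrogen mice 11 (1.78) and 14 (1.72) and lower in the withdrawn mice 10 (−0.28) and 19 (−0.62). SERPINB5 did the same, with 0.55 and 2.08 in the estrogen mice 11 and 14 and −0.41 and −0.20 in the withdrawn mice 10 and 19. The signs held after quantile normalization for both genes, with smaller values for SERPINB1 in mice 11 (0.94) and 14 (0.44). In the fit, which adds mouse 9, the site difference after withdrawal was −0.48 ± 0.33 (SE) for SERPINB1. For SERPINB5 it was 0.26 ± 0.68, of the other sign than in mice 10 and 19. The share of all genes with such a split was not counted, so the split is not read as particular to these members. SERPINA5 stayed between −0.63 and 0.30 and SERPINH1 between −0.14 and 0.08, with both signs present.

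Counted over the 6 tested members, 2 passed the threshold between sites with estrogen (SERPINA1 and SERPINB1, both higher in lymph node), where 8.76% of all genes were called, 7.81% higher and 0.949% lower. In primary tumors 1 member (SERPINB1) was called lower with estrogen, where 7.82% of all genes were called, 0.879% higher and 6.94% lower. On the averaged site difference 1 member (SERPINA1) was called higher, beside 8.15% of all genes called, with 7.51% called higher. On the averaged estrogen response 1 member (SERPINB1) was called lower, beside 8.01% of all genes called, with 7.04% called lower. No member was called between pellet states in lymph node or between sites after withdrawal. There limma called 0% of all genes, with 1002 and 1723 genes at an unadjusted p below 0.05. The difference between the pellet responses of the sites called 0 members and 0.0116% of all genes.

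Groups that do not overlap were common among all genes. With estrogen 3 of the 6 members (SERPINA1, SERPINB1 and SERPINB5) were wholly higher in lymph node, where 38.0% of all genes did not overlap and 28.0% were wholly higher. After withdrawal 1 member (SERPINA1) was, beside 31.0% of all genes without overlap and 20.8% wholly higher. In primary tumors 3 members did not overlap between pellet states (SERPINA3 and SERPINA5 higher and SERPINB1 lower with estrogen), where 60.9% of all genes did not, 22.6% higher and 38.3% lower. In lymph nodes 0 of 6 members were free of overlap, beside 9.93% of all genes.

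Several members are also made by leukocytes and stroma, so markers of those cells were read on the same arrays. Of 15 myeloid markers 13 were measured and 9 passed the filter. Their summed log2 signal was 48.3 to 59.4 in LN_E, 42.9 to 48.2 in LN_EWD, 48.5 to 48.6 in PT_E and 37.5 to 43.3 in PT_EWD. Of the measured ones, PTPRC (2.00 to 2.54), LYZ (1.86 to 2.45), CSF1R (2.08 to 2.51) and CD163 (2.01 to 2.47) were under the filter on average. Those that passed included AIF1 (3.96 to 5.41), MPO (2.93 to 3.24), CD14 (2.59 to 4.33) and ITGAM (2.05 to 5.06). S100A8 and S100A9, calcium-binding proteins of granulocytes that epithelial cells can also make, varied widely. They made up most of the spread between the lowest and the highest sum. S100A8 read 9.91 to 13.39 in lymph nodes and 6.19 to 10.57 in primary tumors, and S100A9 read 4.31 to 11.84 and 2.92 to 7.83. Their part in the SERPINA1 and SERPINB1 differences was not tested.

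Lymphocyte markers (11 of 12 measured) summed to 31.4 to 33.8 in lymph nodes and 30.9 to 34.9 in primary tumors, so the summed ranges overlapped. Of the 11, 5 had a positive averaged site difference, as did 11251 of all 17170 genes, and 0 were called, beside 8.15% of all genes. CD79A, the brightest, read 5.19 to 6.52 in lymph nodes and 3.73 to 4.95 in primary tumors, without overlap. Its part in the member differences was not tested. Fibroblast markers (12 of 12 measured) ranged from 36.9 to 40.5 in lymph nodes and 39.7 to 42.9 in primary tumors, and endothelial markers (10 of 10) from 36.8 to 40.9 and 36.8 to 38.8. Basal markers (8 of 10) ranged from 31.0 to 40.1 and 33.1 to 44.4. Luminal markers (12 of 12) summed to 110.9 to 129.6 in lymph nodes, 100.2 to 101.9 in PT_E and 124.9 to 126.0 in PT_EWD, lowest on the arrays where SERPINB1 was lowest. Between sites in estrogen mice 7 of 12 luminal markers were called higher in lymph node, where 7.81% of all genes were. EPCAM (2.66) and CDH1 (2.13) led them. In primary tumors 5 of the 12 fell with estrogen, where 6.94% of all genes were called lower. After quantile normalization 0 of the 12 were called between sites with estrogen and 1 in primary tumors. Between sites EPCAM was then 1.06, CDH1 was 0.41 and GATA3, 1.56 as deposited, turned to −0.22. The growth factor receptor EGFR, listed with the basal markers, differed most, at −6.73 ± 0.91 between sites with estrogen and 5.87 ± 0.98 between pellet states in primary tumors, and both were called after quantile normalization. Without PT_E mouse 11 neither EGFR value was called. The collagen gene COL3A1 was called lower in lymph node than in primary tumor in estrogen mice (−1.90), a call lost after quantile normalization and in 7 of 10 fits with 1 array left out.

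The genes whose log2 signal followed SERPINA1 most closely over the 10 arrays were P2RY6, a nucleotide receptor (Pearson r = 0.981), VKORC1, the vitamin K epoxide reductase (0.961), ARFGEF3 (0.957), DHCR7, the last enzyme of cholesterol synthesis (0.957), and S100A6, a calcium-binding protein (0.955). P2RY6 read 5.06 to 6.20 in lymph nodes and 3.25 to 3.89 in primary tumors. The arrays lie at a high and a low level by site, so any gene that separates the sites correlates with SERPINA1. Within the 6 lymph node arrays r was 0.857 for P2RY6, 0.652 for VKORC1, 0.708 for ARFGEF3, 0.808 for DHCR7 and 0.902 for S100A6. These arrays were among the 10 used to pick the genes, so a high r within them is partly set by that choice. LN_EWD mouse 10 was the highest array for SERPINA1 (10.72), S100A6 (10.02) and P2RY6 (6.20), and r without it was not tested. After quantile normalization r over the 10 arrays was 0.971 for P2RY6 and 0.644 for DHCR7, the highest and the lowest of the 5. The most opposite genes were FAM24A (−0.917), ZNF264 (−0.9) and NAV3 (−0.897). Among the members, SERPINA1 had r of 0.136 to 0.293 with the others, and the arrays share mice and site levels.

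**Figure D3:**
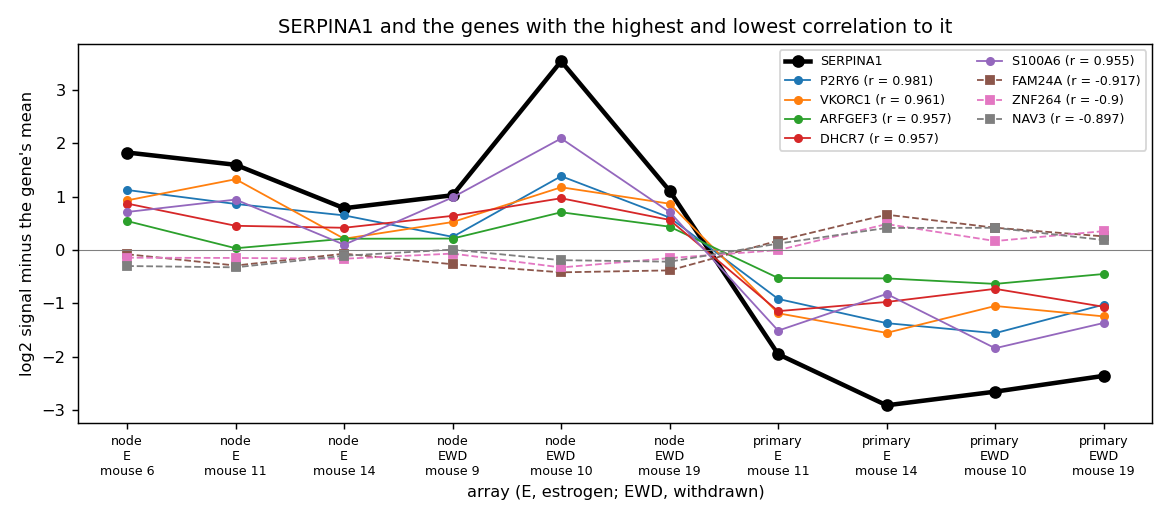
Log2 signal minus the gene's own mean (vertical axis) on the 10 arrays (horizontal axis) for SERPINA1, the 5 genes with the highest Pearson r with it (solid) and the 3 with the lowest (dashed); lines join arrays only to guide the eye. SERPINA1 and P2RY6 (r = 0.981) are both high on the 6 lymph node arrays and low on the 4 primary tumor arrays.

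The rest of the family gave no call. Of 28 other serpins 23 were measured and 16 tested, and limma called 0 in each of the 4 group comparisons. Their median difference was −0.09 between sites with estrogen, where that of all genes was 0.26, and 0.21 between pellet states in primary tumors, where that of all genes was −0.10. SERPINF1, the anti-angiogenic factor PEDF, had the highest mean of them. It read 5.08 ± 0.58 (SD, n = 3) in LN_E, 4.98 ± 0.45 (SD, n = 3) in LN_EWD, 5.59 ± 0.37 (SD, n = 2) in PT_E and 6.39 ± 0.02 (SD, n = 2) in PT_EWD. Its site difference after withdrawal was −1.42 ± 0.39 (SE), opposite in sign to that of SERPINA1, and did not pass (limma adjusted p = 0.278). SERPING1, the complement C1 inhibitor, read 4.71 ± 0.03 (SD, n = 2) in PT_E and 2.87 ± 0.04 (SD, n = 2) in PT_EWD, a difference of 1.85 ± 0.56 (limma adjusted p = 0.0803). SERPINB8, an inhibitor of furin, differed by 1.01 ± 0.34 in primary tumors (limma adjusted p = 0.0999). SERPINF2, the plasmin inhibitor, had group means of 4.08 to 4.54.

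In the lists that follow, site values are lymph node minus primary tumor in estrogen mice, where 8.76% of all genes were called, and pellet values are estrogen minus withdrawn in primary tumors, where 7.82% were. Of 38 serine proteases tested, limma called 1 higher and 2 lower in lymph node than in primary tumor, and 1 higher and 1 lower with estrogen in primary tumors. PLAU, the urokinase that SERPINE2 and SERPINA5 inhibit, was lower in lymph node than in primary tumor of estrogen mice (−2.00 ± 0.32, adjusted p = 0.0097) and rose with estrogen in primary tumors (1.84 ± 0.34, adjusted p = 0.0206). It was called after quantile normalization too (−2.42 and 2.20). Both values share the PT_E arrays, and without PT_E mouse 11 neither was called (−1.85 to −2.11 and 1.33 to 2.38 over all arrays left out in turn); the primary tumor call was also lost without PT_E mouse 14 or PT_EWD mouse 19. TMPRSS2, a membrane protease, fell with estrogen in primary tumors (−2.63 ± 0.34, adjusted p = 0.0105). Of the coagulation factors, F12 was higher (1.66) and F10 lower (−1.18) in lymph node than in primary tumor of estrogen mice, and neither call held after quantile normalization.

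Cathepsins and inhibitors of other families were called mainly against the PT_E arrays. Between sites in estrogen mice 3 of 12 cathepsins were called higher in lymph node (CTSD 1.95, CTSA 1.86 and CTSL 1.77) and 0 lower. In primary tumors CTSL (−2.95) and CTSF (−1.93), lysosomal cysteine proteases, fell with estrogen and CTSW (0.93) rose. Of 18 other inhibitors 5 were called higher in lymph node than in primary tumor of estrogen mice, led by CSTB (2.44), SLPI (2.01), SPINT2 (1.98) and CSTA (1.76), and 0 lower. SLPI blocks neutrophil elastase, as SERPINA1 does, and the cystatins CSTA and CSTB block cathepsins. In primary tumors CSTA (−4.37), the matrix protease inhibitor TIMP3 (−3.08), SPINT2 (−2.80) and CSTB (−1.81) fell with estrogen. After quantile normalization 0 of the 12 cathepsins and 0 of the 18 inhibitors were called between sites with estrogen. There CTSD was 0.50, SPINT2 0.19 and CSTA 0.012, while SLPI stayed at 2.00. In primary tumors 0 cathepsins and 1 inhibitor (CSTA, −2.72) were then called, and CSTB turned to 0.028.

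Serpin complexes are cleared by receptors of the LDL receptor family, and SERPINA1 is folded and checked in the endoplasmic reticulum. Of 9 clearance genes 2 were called higher in lymph node than in primary tumor of estrogen mice, the receptor chaperone LRPAP1 (2.23) and the syndecan SDC4 (1.86), and both fell with estrogen within primary tumors (−1.81 and −1.60), where both turned positive after quantile normalization (0.023 and 0.19). Of 20 secretory quality control genes 4 were called higher in lymph node than in primary tumor of estrogen mice, the chaperones CALR (2.57), HSP90B1 (2.39) and CANX (2.02) and the degradation factor DERL1 (2.49), and HSP90B1 (−2.85) and CANX (−2.01) fell with estrogen in primary tumors. After quantile normalization none of the 4 site calls remained (CALR 0.81, HSP90B1 1.31, CANX 0.24 and DERL1 1.35). Of 19 collagen folding genes, partners of SERPINH1, 4 were called higher in lymph node than in primary tumor of estrogen mice (PPIB 2.18, P3H4 1.79, PLOD3 1.77 and PLOD1 1.24). PLOD3 fell with estrogen in primary tumors (−1.02), turning to 0.72 after quantile normalization. After it 0 collagen folding, clearance or secretory quality control genes were called in either comparison. After withdrawal 18 of the 19 collagen folding genes had a positive site difference, as did 9722 of all 17170 genes. Their median was 0.81, where all genes had 0.07, and limma called 0. The list was chosen with earlier results known, so this is a description.

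Over all 13 lists 189 genes were tested. Of these 30 were called between sites with estrogen and 20 between pellet states in primary tumors, and quantile normalization left 2 and 5 of them called. Leaving out any 1 array in turn, 5 of the 30 and 0 of the 20 stayed called throughout. Between pellet states in lymph node and between sites after withdrawal limma called 0 listed genes.

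**Figure D4:**
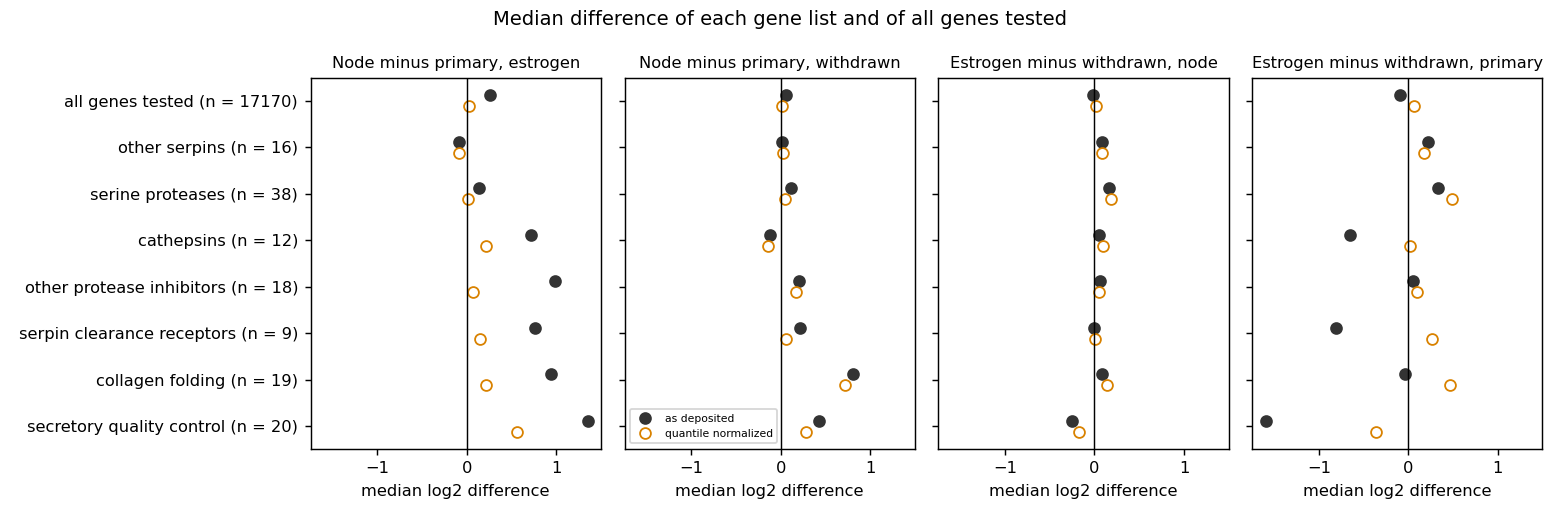
Median log2 difference (horizontal axis) of each list and of all genes tested in the 4 group comparisons, with values as deposited (filled) and after quantile normalization (open). The median of secretory quality control genes is 1.35 as deposited and 0.56 after quantile normalization between sites with estrogen, while the other serpins, most of them dim, stay at −0.09.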

How the data were processed

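The authors deposited 1 log2 signal per probe set and array (61359 probe sets, 10 arrays). Partek and RMA, which corrects background and summarizes probes, made the deposited values per the submitters' processing notes, without versions. RMA usually also normalizes between arrays, but these arrays do not share 1 distribution, so that step is unclear here. Fits were therefore repeated after quantile normalization. Arrays give no counts, and their number limits precision. The annotation gave 44532 probe sets 1 symbol, 1492 several and 15273 none used here; 62 were controls. A gene was its single-symbol probe set with the highest mean, and genes under a mean of 2.31 (percentile 25 over probe sets) were dropped, leaving 17170. Models were fitted by limma 3.58.1 (R 4.3.3; lmFit, eBayes) with 1 mean per group, all 10 arrays, mouse as a random block (consensus correlation −0.0415) and Benjamini-Hochberg adjustment over all genes. Differences carry the fit's SE. The replicate is the mouse. Mouse numbers pair both sites of 1 animal; deviations from group means correlated at 0.176 (mouse 10), −0.208 (mouse 11), −0.21 (mouse 14) and 0.0831 (mouse 19). Members and gene lists were chosen with earlier results of these data known. From each list the called genes with the greatest differences, at most 4 per comparison, were named, with the 4 highest-mean other serpins and the 5 highest and 3 lowest correlations with SERPINA1. The fit was run on simulated data with shifts planted only in LN_E and read only for LN_E against LN_EWD. That simulation had no mouse effect and no narrow arrays, so it does not bear on the PT_E comparisons.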

Additional observations from a re-analysis of the deposited data

Results flagged for a closer look

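SERPINB1 was higher in lymph node than in the primary tumor of the same animal in both estrogen mice and lower in both withdrawn mice, so the site difference went opposite ways in the pellet states. The fitted difference between the site differences was 2.01 ± 0.47 log2 units (SE), and limma did not call it over all genes. It was 0.94 after quantile normalization. It was called without LN_E mouse 11 (1.90), a setting in which limma called 1543 of the 17170 genes, against 2 with all arrays.

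SERPINB5 showed the same opposite signs in the same mice, with a fitted difference of 0.87 ± 0.96, also not called. It ranged from 0.17 (without PT_EWD mouse 10) to 1.44 (without LN_EWD mouse 9) when 1 array was left out. As members were chosen with these values known, and the share of all genes with such a split was not counted, both are given as a description.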

How the results depend on the processing

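Precision is limited by 2 or 3 arrays per group and by the narrow range of the PT_E arrays. As reported, limma called 0 genes between pellet states in lymph node, 1342 in primary tumors, 1504 between sites with estrogen, 0 after withdrawal, 2 for the difference of responses, 1400 for the averaged site and 1376 for the averaged estrogen response. Quantile normalization gave 236 in primary tumors (56.4% higher, 11.3% as reported), 87 between sites with estrogen (18.4% higher, 89.2% as reported), 1 for the difference of responses, 62 for averaged site (35.5% higher, 92.1% as reported) and 639 for averaged estrogen (43.7% higher, 12.2% as reported). It left 0 members called in primary tumors, between sites with estrogen and for averaged estrogen, and 5 and 2 listed genes in the first 2 of these. The median of all genes moved under it from 0.26 to 0.02 between sites with estrogen and from −0.10 to 0.06 in primary tumors. Signs turned under it for CSTB (0.028), LRPAP1 (0.023), SDC4 (0.19) and PLOD3 (0.72) in primary tumors, for GATA3 between sites with estrogen (−0.22), and for CSTB (0.039) and LRPAP1 (0.065) in averaged estrogen.

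In the same order of comparisons, the mean of a gene's probe sets gave 2, 694, 843, 1, 1, 902 and 773 genes, with 1 listed gene in lymph node, 1 member and 18 listed genes between sites with estrogen and 0 members for averaged estrogen. The hybridization level as a covariate gave 2, 5634 (48 listed), 4491 (54 listed), 1078 (1 member, 6 listed), 3390, 2651 and 5517. Array weights gave 4118 in primary tumors (49 listed), 1793 between sites after withdrawal (1 member, 28 listed), 15 for the difference of responses, 3060 and 2648 for the averages, and 1 member between sites with estrogen. Without the filter the difference of responses had 4. With only the compared groups and no replicate block, changed together, primary tumors had 3685 (42 listed) and sites with estrogen 0 (0 members, 0 listed, with 3326 genes at an unadjusted p below 0.05 in limma).

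Mouse as a fixed replicate block over the 4 mice with both sites gave 0 genes for sites with estrogen and for averaged site (0 members, 0 listed, with 2501 and 2561 genes at an unadjusted p below 0.05 in limma), and 3.62 for SERPINA1 between sites with estrogen. Without any replicate block that value was 3.84, and no member's call changed. Leaving out each array gave, in order, 0 to 9, 5 to 3564, 181 to 3850, 0 to 42, 0 to 1543, 242 to 3162 and 15 to 2717 genes. Members called then numbered 0 to 1 in primary tumors, 0 to 2 between sites with estrogen, 0 to 1 for the difference of responses, 1 to 1 for averaged site and 0 to 1 for averaged estrogen, and listed genes 0 to 42 and 5 to 46 in the first 2 of these. The cause of these changes was not tested.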
